A study of Mus musculus with 6 samples.

Results

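Cholesterol and fatty acid synthesis genes were followed in neural stem/progenitor cells (NSC/NPCs) of the fetal mouse hypothalamus as 34 named mRNAs out of the 22048 genes in the deposited table. The members were taken by gene symbol and cover 18 enzymes of sterol synthesis, 5 sterol regulators and carriers, 6 genes of fatty acid synthesis and 5 genes of the liver X receptor (LXR) branch. All 34 were found, and all 34 passed the filter on low counts, with 76 to 165043 reads per gene and sample. In samples exposed to high estradiol, 16 of the 18 sterol enzymes had a higher mean than in controls by small amounts, the fatty acid genes went both ways, and 4 of the 5 LXR genes were lower, led by Abca1. No member passed the adjusted threshold.

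Cells build cholesterol from acetyl-CoA through mevalonate, farnesyl diphosphate, squalene and lanosterol. When membrane cholesterol is low, the transcription factors encoded by Srebf1 and Srebf2 are escorted by Scap out of the endoplasmic reticulum, cut, and switch on the enzymes of this route, whereas Insig1 holds them back. LXRs, encoded by Nr1h2 and Nr1h3, sense oxidized cholesterol and raise genes of cholesterol export, among them Abca1, Abcg1 and Apoe. In the brain, cholesterol is made locally because the blood-brain barrier keeps plasma lipoproteins out, and astrocytes are a main source of Apoe particles.

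The HE group descended from pregnant C57BL/6 mice, aged 8 weeks, that were given estradiol valerate by gavage at 100 μg/kg/d between E5.5 and E11.5. The NC group is labelled untreated, and its dams received the corn oil vehicle according to the same protocol. In both groups hypothalami came from male fetuses at E14.5, and the dissociated cells were grown as neurospheres and harvested at the first passage. The medium held 2% B27, 1% GlutaMAX, and EGF and bFGF at 10 ng/mL each. There were 3 samples per group, and each of them pooled cells of 2 mice. RNA came from whole cultures, so that fewer cells of a type and less RNA per cell cannot be told apart.

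Between 16078675 and 19137059 reads per sample fell on genes, and 1 read on a gene of 1 kilobase was worth 0.0523 to 0.0622 RPKM (reads per kilobase of gene, scaled to the total of counted reads). HE3 stood apart, with a median over all tested genes of -0.17 on the log2 scale relative to the NC mean, against -0.02 to 0.02 in the other samples. Differences were tested with limma on log2(RPKM + 0.1) over 13952 genes, and a gene was called when the Benjamini-Hochberg adjusted p was under 0.05 and the log2 fold change was at least 1 either way. Fold changes (log2 FC) are on this log2(RPKM + 0.1) scale throughout, and a positive value means higher in HE. Of the 13952 genes 0 were called (0%), with limma as with voom on the read counts, and 2858 had an unadjusted p under 0.05 (20.5%). The study used DESeq2, a count-based test, at the same cutoffs and reported differentially expressed mRNAs in both directions. The count of 0 therefore belongs to the fits used here. Without NC3, 103 genes were called, 0 of them members. The adjusted p of the members ran from 0.195 to 0.947.

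Of the 34 members, 5 were higher and 4 lower in HE at an unadjusted p under 0.05 in limma, against 8.68% of all tested genes higher and 11.8% lower. The values of the HE samples lay entirely above those of the NC samples for 5 members and entirely below for 4, against 14.8% and 17.9% of all tested genes (32.7% either way). The share of members that were lower at this p matched the background, that of members that were higher was somewhat above it, and neither share with groups apart exceeded it. Of the whole list, 5 of the 9 members with an unadjusted p under 0.05 belong to the LXR branch. With the samples scaled by the median of ratios, 6 members were higher and 2 lower at this p. These counts differed when a sample was left out, and so did those over all genes. The 9 members with an unadjusted p under 0.05 became 3 without NC1, 2 without NC2 and 5 without HE2, while the share of all tested genes went from 20.5% to 9.62%, 11.7% and 20.5%. The 9 members with groups apart became 20 without NC3 and 15 without HE1, while the share of all tested genes, in which fewer samples separate more easily, went from 32.7% to 45.3% and 46.1%. With median-of-ratios scaling 7 members had groups apart, 4 higher and 3 lower, against 16.2% and 16.4% of all tested genes, and the groups of Elovl6, Hsd17b7 and Nr1h3 then overlapped. For 24 of the 34 members, leaving out a sample moved the log2 fold change by more than 1.5 times, so that most single values below are loosely fixed. Without HE3, 6 members were higher and 4 lower at an unadjusted p under 0.05, against 9.35% and 10.5% of all tested genes.

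Averaged over genes within each sample and set relative to the NC mean, the sterol enzymes stood at -0.06, -0.12 and 0.18 on the log2 scale in NC1, NC2 and NC3 and at 0.08, 0.42 and 0.20 in HE1, HE2 and HE3. NC3 thus lay above HE1, and the groups overlap. The fatty acid genes stood at 0.02, -0.19 and 0.17 in the NC samples and at -0.06, 0.24 and -0.14 in the HE samples, with the HE values spread as widely as the NC values. For the LXR branch the NC scores were 0.09, 0.13 and -0.22 and the HE scores -0.21, -0.55 and -0.71. HE1 lay just above NC3 in the LXR branch, so these scores overlap as well, while HE2 and HE3 were the lowest samples.

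**Figure D1:**
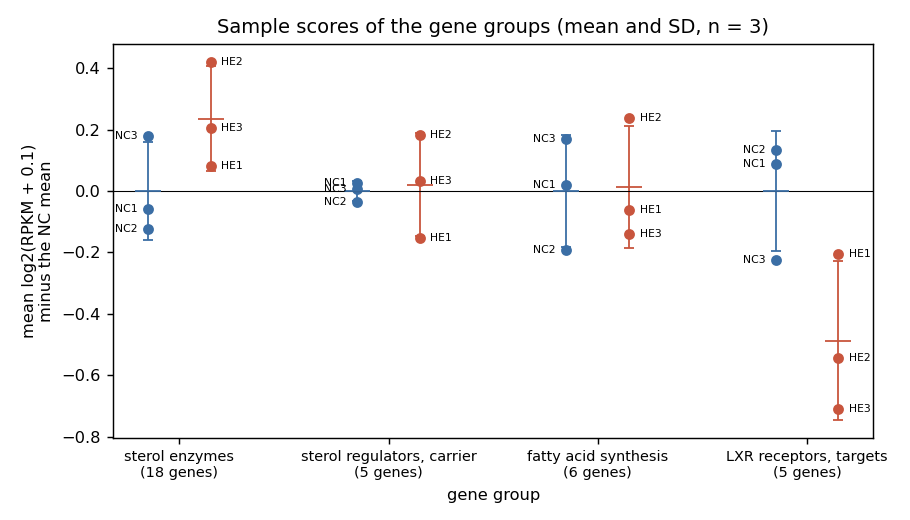
Score of each sample for the 4 gene groups, as the mean over the genes of log2(RPKM + 0.1) minus the NC mean (y axis), with NC samples in blue, HE samples in red, a dash for the group mean and bars for the SD (n = 3). The LXR group shows the widest difference between the group means, with HE3 at -0.71 and HE2 at -0.55, while NC3 lies among the HE samples for the sterol enzymes.

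**Figure D2:**
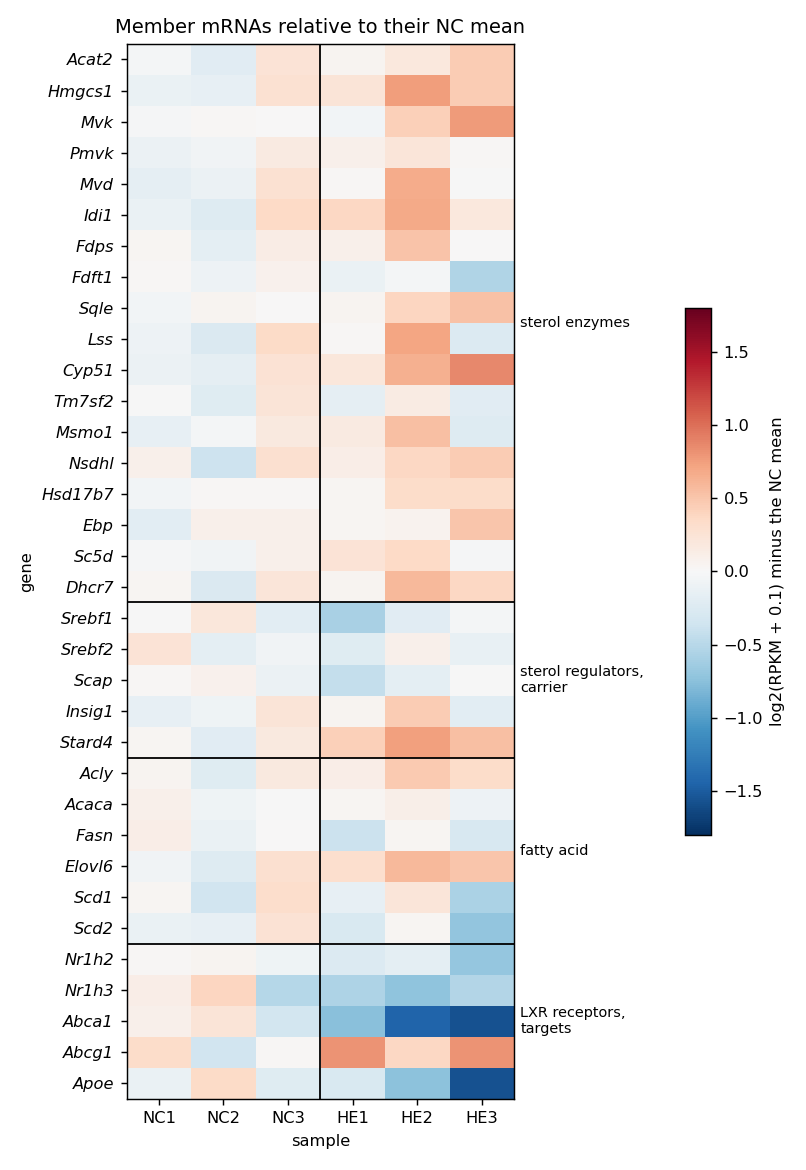
Each of the 34 mRNAs (rows, grouped by role) in each sample (columns), coloured by log2(RPKM + 0.1) minus the NC mean of that gene, with red above and blue below. Most sterol enzymes are red in HE2 and NC3, and Abca1 and Apoe are dark blue in HE2 and HE3.

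The LXR branch held the largest difference among the members. Abca1, the transporter that loads cholesterol onto apolipoproteins at the cell surface, was at 153, 170 and 115 RPKM in NC1, NC2 and NC3 and at 85.3, 53.0 and 48.5 RPKM in HE1, HE2 and HE3. The groups did not overlap, and even HE1 was well under NC3. Its log2 FC was -1.26 with an SE of 0.24 (limma adjusted p = 0.195), and it lay between -1.51 and -1.10 when each sample was left out in turn. Abca1 and Stard4 were the members with an unadjusted p under 0.05 in all 15 settings of the fit. Abca1 lies on chromosome 4 of GRCm38.p6, from 53030789 to 53159988. For a single gene with 3 samples against 3, complete separation gives an exact two-sided permutation p of 0.1, the smallest this design allows.

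Apoe, the main lipid-carrying apolipoprotein of the brain, was the most abundant member. Its level was 2919, 4034 and 2741 RPKM in the NC samples and 2637, 1900 and 1072 RPKM in the HE samples. The groups did not overlap, but HE1 lay just under NC3, and the HE samples ranged from near the NC level to well below it. The log2 FC was -0.86 (SE 0.37, limma adjusted p = 0.244) and was -0.51 without HE3. Apoe lies on chromosome 7, from 19696244 to 19701310.

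Abcg1, which moves cholesterol onto lipoprotein particles, went the other way at a far lower level. It was at 2.16, 1.31 and 1.71 RPKM in NC samples and 3.05, 2.22 and 3.04 in HE samples, from 102 to 222 reads. All HE values were above all NC values, with HE2 close to NC1. Its log2 FC was 0.66 (SE 0.23, limma adjusted p = 0.208). Abcg1 lies on chromosome 17, from 31057694 to 31117984.

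Both receptors were lower in HE. Nr1h2, which encodes LXR beta, was at 26.8, 27.3 and 25.0 RPKM in NC samples and 22.1, 23.3 and 16.3 in HE samples, a log2 FC of -0.37 (SE 0.15, limma adjusted p = 0.236). HE3 was the lowest of these, and without it the log2 FC was -0.21. Nr1h3, which encodes LXR alpha, was at 3.01, 3.66 and 1.91 RPKM in NC samples and 1.84, 1.63 and 1.88 in HE samples, a log2 FC of -0.61 (SE 0.25). NC3, with 91 reads of Nr1h3, and HE3, with 76, were nearly level, and with median-of-ratios scaling the groups overlapped. Nr1h3 overlaps the neighbouring gene Acp2 in the annotation. The library was strand-specific by the study's methods, but whether reads were counted by strand is not given in the sources used here, and without it these genes would share reads.

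**Figure D3:**
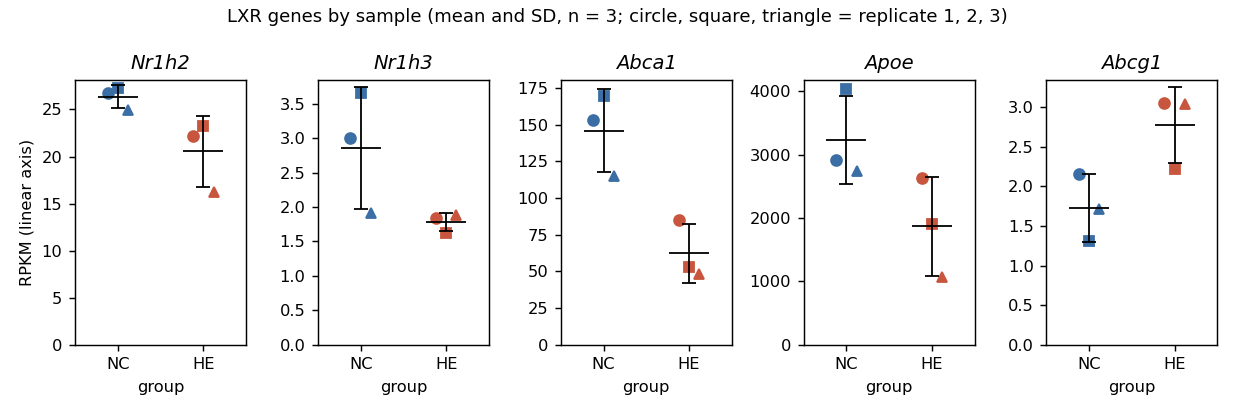
RPKM (linear y axes from 0) of the 5 LXR genes in each sample, with circles, squares and triangles for replicates 1, 2 and 3, a dash for the mean and bars for the SD (n = 3). Nr1h2, Nr1h3, Abca1 and Apoe lie lower in HE and Abcg1 lies higher, with no overlap in any panel.

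Promoter sequence from RefSeq (GRCm38.p6, 250 bases before to 50 after a transcript start) was at hand for 27 of the 34 members, in 36 promoters. LXR binds with its partner RXR to repeats of a short motif with 4 bases between the copies. The consensus repeat, AGGTCA, 4 bases of any kind and AGGTCA again, was in 0 of the 36 promoters and in 0.0152% of all 32851 promoters. A variant spelling, GGTTA, 5 bases of any kind and GGTCA, on either strand, was in 3 of the 36, those of Abca1, Fasn and Srebf1, and in 16 of all promoters (0.0487%). The spellings were settled on after several had been tried, and a match is a description of the letters and not a site. The 3 matches are shown in capitals, each on the coding strand of its gene and within bases upstream of a transcript start, because the genes come from the LXR, fatty acid and regulator groups. The windows are chr4:53159941-53159969 for Abca1, chr11:120824751-120824779 for Fasn and chr11:60210632-60210660 for Srebf1, all on the minus strand. All 3 lie inside the span that RefSeq gives the gene, and are upstream only of a start within that span.
Abca1: cagcgttTGACCGGTAGTAACCccggcgc
Fasn: gccacgaTGACCGGTAGTAACCccgcctg
Srebf1: acgacagTGACCGCCAGTAACCccagcgc

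The match begins 67 bases upstream of this start in Abca1, 225 in Fasn and 182 in Srebf1 (the most downstream of its 3 promoters), and its 15 letters are the same in Abca1 and Fasn. The 3 genes that share it had unlike differences between the groups. Abca1 had a log2 FC of -1.26, whereas Fasn was at -0.21 and Srebf1 at -0.28, and in Fasn and Srebf1 the groups overlapped.

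Sterol synthesis enzymes were mostly higher in HE, and each difference was small. Of the 18 enzymes 16 had a positive log2 FC (88.9%, against 43.8% of all tested genes), with a median of 0.23 against -0.06 over all tested genes. Only Hmgcs1 and Cyp51 had an unadjusted p under 0.05 in limma, 2 of 18, a share near the 8.68% of the background. The count of 16 was 14 without HE2 and 16 without HE3. NC3 exceeded both other NC samples in 14 of the 18 enzymes, and HE1 exceeded NC3 in 4, HE2 in 14 and HE3 in 9. HE2 was the highest sample for 10 enzymes and HE3 for 6, whereas NC2 was the lowest for 10.

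**Figure D4:**
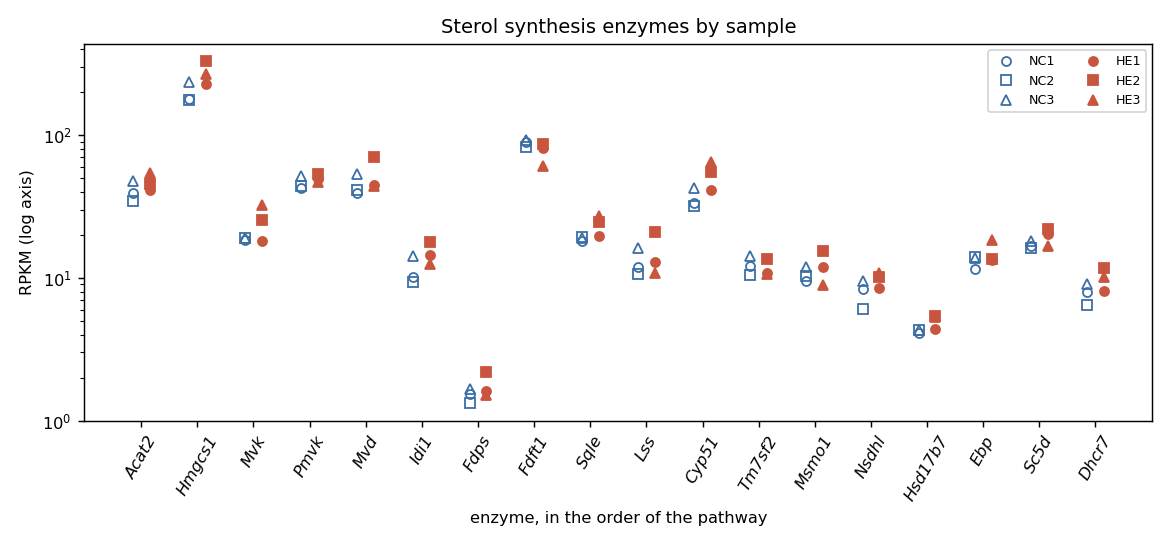
RPKM (log y axis) of the 18 sterol synthesis enzymes in the order of the pathway (x axis), with NC samples as open blue and HE samples as filled red symbols (circles, squares and triangles for replicates 1, 2 and 3). Hmgcs1 is the most abundant at 176 to 331 RPKM and Fdps the least at 1.32 to 2.18 RPKM, and the red and blue symbols overlap for most enzymes.

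In the first part of the route, from acetyl-CoA to farnesyl diphosphate, all 7 enzymes had a positive log2 FC, from 0.11 to 0.48. Hmgcs1, the synthase that makes HMG-CoA, was at 180, 176 and 237 RPKM in NC samples and 230, 331 and 269 in HE samples. NC3 lay above HE1, and the other HE samples lay above all NC samples. This gave a log2 FC of 0.48 with an SE of 0.19 (adjusted p = 0.224 in limma). Idi1, the isomerase of isopentenyl diphosphate, had a log2 FC of 0.41 and Mvk, mevalonate kinase, of 0.38 (0.19 without HE3). Acat2, the thiolase at the start of the route, was at 0.23 (0.13 without HE3 or without NC2). Mvd, the decarboxylase, was also at 0.23, but at 0.0040 without HE2. Pmvk, the phosphomevalonate kinase, was at 0.11 and at 0.058 without HE2. Fdps, which makes farnesyl diphosphate, was at 0.20 and at 0.050 without HE2, from 102 to 175 reads.

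Among the 27 members with a promoter sequence, Hmgcs1 was the single one that held TCACNCCAC on either strand. This is a spelling of the sterol regulatory element that the Srebf proteins bind. Fdps, Fdft1, Sqle, Stard4, Scd1, Scd2 and Abcg1 had no promoter sequence to search. The match in Hmgcs1 was the only one. The spelling was in 1 of the 36 member promoters and in 1.24% of all promoters. The letters CCAAT, bound by NF-Y, were in 20 of the 36 (55.6%) against 37.4% of all promoters, and GGGCGG, bound by Sp1, in 23 (63.9%) against 35.7%. The spelling TCACGTGA was in 0 of the 36 and in 0.974% of all. The Hmgcs1 window, chr13:119690169-119690267 on the plus strand, is shown with the match in capitals, which begins 137 bases upstream of the start.
Hmgcs1: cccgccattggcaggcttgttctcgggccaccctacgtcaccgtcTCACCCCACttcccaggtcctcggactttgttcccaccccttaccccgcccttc

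At the branch toward squalene the direction changed from gene to gene. Fdft1, squalene synthase, which commits farnesyl diphosphate to sterols, was at 89.5, 82.6 and 92.9 RPKM in NC samples and 81.6, 86.5 and 60.5 in HE samples. HE1 was below the lowest NC sample, HE2 was within the NC range and HE3 was far below it. The log2 FC was -0.23 (SE 0.15), and -0.07 without HE3. Fdft1 overlaps Ctsb in the annotation. Sqle, squalene epoxidase, was at 18.2, 19.4 and 19.1 RPKM in NC samples and 19.6, 24.8 and 27.2 in HE samples, a log2 FC of 0.32 (SE 0.14, limma adjusted p = 0.249). Its groups did not overlap, although HE1 and NC2 were nearly level. Lss, lanosterol synthase, had a log2 FC of 0.16, carried by HE2 at 20.9 RPKM, and of -0.11 without HE2.

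Of the 8 enzymes that turn lanosterol into cholesterol, 7 had a positive log2 FC. Cyp51, the lanosterol demethylase, differed most among all 18 enzymes. It was at 33.4, 32.0 and 42.8 RPKM in NC samples and 41.3, 55.5 and 65.4 in HE samples, with NC3 just above HE1. Its log2 FC was 0.57 with an SE of 0.20 (adjusted p = 0.205 in limma). Hsd17b7, a ketoreductase, was the other enzyme besides Sqle with groups apart, at 4.09 to 4.31 RPKM in NC samples and 4.36 to 5.37 in HE samples, a log2 FC of 0.23. Dhcr7, the last reductase of the route, was at 0.33. Nsdhl and Msmo1, which act in the removal of methyl groups from the sterol ring, were at 0.31 (0.13 without NC2) and 0.16 (-0.029 without HE2). Ebp, an isomerase, and Sc5d, a desaturase, were both at 0.20, and at 0.052 without HE3 and 0.11 without HE2 respectively. Tm7sf2, a sterol reductase, was at -0.07 with a 95% interval of -0.44 to 0.31, and it overlaps Vps51.

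Among the regulators, Stard4 stood apart. Stard4, a carrier that moves cholesterol between membranes, was at 3.92, 3.31 and 4.33 RPKM in NC samples and 5.17, 6.46 and 5.62 in HE samples, so that every HE sample was above every NC sample. The log2 FC was 0.57 (SE 0.16, limma adjusted p = 0.195), and it stayed between 0.47 and 0.65 when each sample was left out. Stard4 lies on chromosome 18, from 33199138 to 33213862.

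Of the genes that control the route, Srebf1, Srebf2 and Scap had a negative log2 FC and Insig1 a small positive one. The 95% interval of each included 0. Srebf1 overlaps Rai1 in the annotation. Srebf1 was at 72.5, 84.2 and 63.8 RPKM in NC samples and 48.6, 63.6 and 71.0 in HE samples, a log2 FC of -0.28 (SE 0.17, 95% interval -0.68 to 0.13), of -0.39 without HE3 and of -0.12 without HE1. Srebf2 had a log2 FC of -0.08 (95% interval -0.43 to 0.26) and Scap of -0.21 (95% interval -0.52 to 0.11). Scap was at -0.30 without HE3 and at -0.098 without HE1. Insig1, itself switched on by the Srebf proteins, was at 79.2, 83.0 and 103 RPKM in NC samples and 90.9, 121 and 77.4 in HE samples, a log2 FC of 0.11. HE3 was the lowest sample and HE2 the highest, so the HE samples enclosed the NC samples.

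Fatty acid synthesis genes were split, with 3 higher and 3 lower in HE and a median log2 FC of -0.08, which ran from -0.19 without HE2 to 0.05 without HE3. Elovl6, which lengthens palmitate to stearate, was at 6.40, 5.68 and 8.18 RPKM in NC samples and 8.29, 10.1 and 9.49 in HE samples. Its groups did not overlap, with NC3 next to HE1, except under median-of-ratios scaling. This gave a log2 FC of 0.46 (SE 0.17, limma adjusted p = 0.212). Acly, which makes the cytosolic acetyl-CoA that both arms use, was at 78.3, 65.4 and 85.4 RPKM in NC samples and 82.5, 105 and 95.6 in HE samples, a log2 FC of 0.31. There NC3 lay above HE1, and HE2 and HE3 lay above all NC samples.

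Acaca, the carboxylase that makes malonyl-CoA, differed least of all members, with a log2 FC of 0.01 and a 95% interval of -0.25 to 0.28. Acaca overlaps Tada2a and Gm11437 in the annotation. Fasn, fatty acid synthase, was at 89.4, 75.6 and 82.7 RPKM in NC samples and 62.9, 84.6 and 67.1 in HE samples, a log2 FC of -0.21 (SE 0.14). HE2 lay inside the NC range and HE1 and HE3 below it. The desaturases Scd1 and Scd2 place the double bond in stearate and palmitate. Scd2 was at 448, 441 and 584 RPKM in NC samples and 402, 498 and 298 in HE samples, a log2 FC of -0.32 (SE 0.22), and of -0.12 without HE3. Scd1 had a log2 FC of -0.17 with a 95% interval of -0.74 to 0.39. Scd1 and Scd2 are close paralogs and could share reads.

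**Figure D5:**
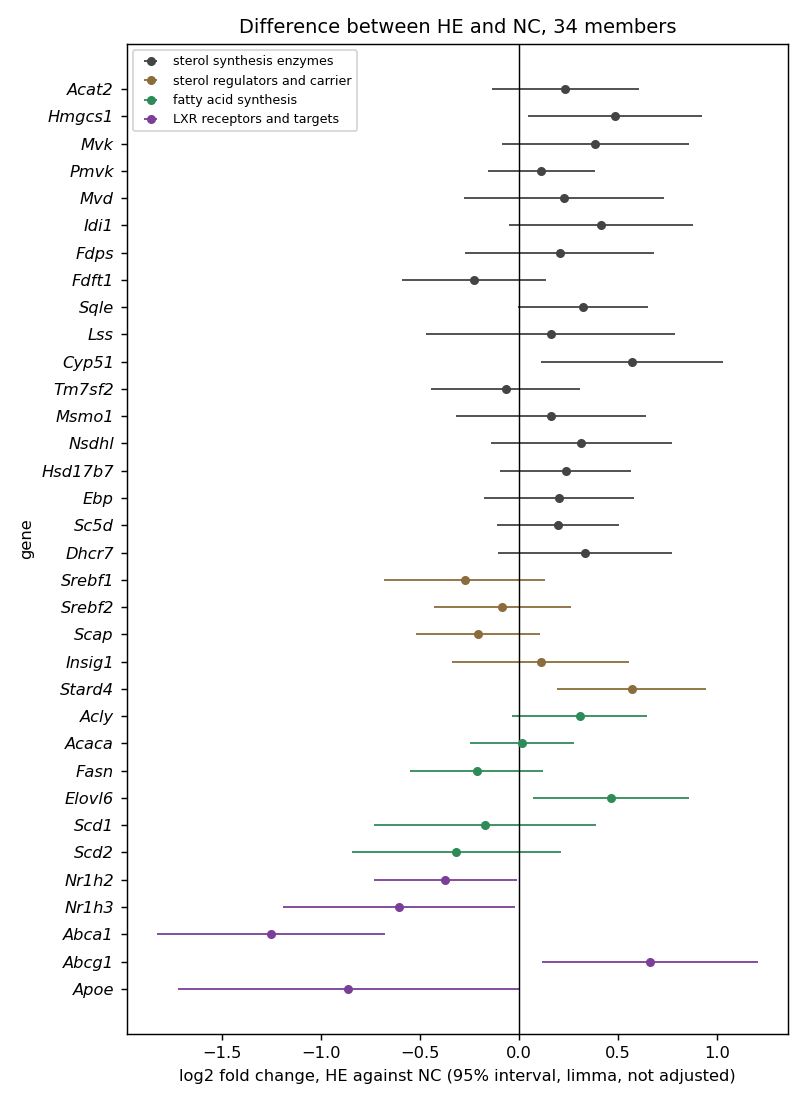
Log2 fold change of each of the 34 members, HE against NC, on log2(RPKM + 0.1) (x axis), with 95% intervals of limma that are not adjusted for the number of genes, coloured by gene group. Intervals exclude 0 for 9 members, of which Abca1 is the farthest out at -1.26.

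Other genes of the same routes were read from 3 further lists, whose counts stand against 8.68% of all tested genes higher and 11.8% lower at an unadjusted p under 0.05. Of 27 genes of isoprenoid synthesis and sterol handling 26 were tested, and 2 were higher and 3 lower at an unadjusted p under 0.05 in limma, with a median log2 FC of -0.07. Lrp1, a receptor that takes up Apoe particles, was at 68.7 ± 8.40 RPKM in NC samples and 28.7 ± 9.77 in HE samples (SD, n = 3 each), a log2 FC of -1.32 (adjusted p = 0.195 in limma), and of -1.01 without HE3. Tmem97, a sterol-responsive membrane protein, was at 38.7 ± 5.77 and 58.3 ± 7.13 RPKM, a log2 FC of 0.59. Acat1, the mitochondrial thiolase, had a log2 FC of 0.55. Cyp46a1, a cholesterol hydroxylase of neurons, was also lower in this count and was named after its value was seen.

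Of the 32 further genes of fatty acid synthesis, elongation and desaturation, all tested, 3 were higher and 2 lower at an unadjusted p under 0.05, with a median of -0.11. Elovl2, an elongase of polyunsaturated fatty acids, was at 1.97 ± 0.424 RPKM in NC samples and 3.32 ± 0.660 in HE samples, a log2 FC of 0.72. Hsd17b12, the ketoreductase of the elongation cycle, had a log2 FC of 0.46. Acsl6, an acyl-CoA synthetase, was at 8.11 ± 1.27 RPKM in NC samples and 5.08 ± 0.424 in HE samples, a log2 FC of -0.65. Tecr, the last reductase of the elongation cycle, which was higher, and Fads3, a desaturase, which was lower, complete this count and were named after their values were seen. Both of these lists were near that background. Of 14 further LXR targets and partners 11 were tested, 0 were higher and 4 lower at an unadjusted p under 0.05 in limma, with a median of -0.23. Abcg4, a transporter related to Abcg1, had a log2 FC of -0.49, Apoc1 of -0.44 and Rxrb, an RXR partner of the LXRs, of -0.43. Arl4c was the remaining gene, named after its value was seen.

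Marker lists of other cell types were read beside these results, and their part in them was not tested. All 8 astrocyte markers were tested, 3 higher and 5 lower in HE, and their summed level was 1548 to 1927 RPKM in NC samples and 1122 to 1588 in HE samples. S100b was the single marker of this list with an unadjusted p under 0.05 in limma and was higher, at 5.42, 9.30 and 5.76 RPKM in NC samples and 12.4, 10.6 and 15.5 in HE samples. Gfap, an astrocyte filament, was at 624, 754 and 624 RPKM in NC samples and 650, 387 and 195 in HE samples. HE1 lay inside the NC range and HE2 and HE3 below it. Of 10 oligodendrocyte lineage markers 9 were tested, 2 higher and 7 lower and 0 of them at an unadjusted p under 0.05 in limma, and their summed level was 296 to 331 RPKM in NC samples and 319 to 515 in HE samples. Of 9 microglia and macrophage markers 4 were tested, all higher, and their summed level was 0.684 to 1.75 RPKM in NC samples and 4.71 to 34.6 in HE samples. C1qa was at 0 in NC1 and NC2. All 8 cell division markers had a higher mean in HE. Their summed level was 195 to 264 RPKM in NC samples and 312 to 489 in HE samples. Of the 8, 7 were higher at an unadjusted p under 0.05 in limma, against 8.68% of all tested genes. The HE samples lay entirely above the NC samples for 7, against 14.8% of all tested genes. The study's own BrdU, neurosphere and cell number assays found reduced proliferation in HE. These mRNA levels do not measure the rate of division, and the unlike directions were not tested.

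The remaining marker lists bear on the label of the samples. The 8 neural progenitor markers summed to 2854 to 3546 RPKM in NC samples and 2798 to 4500 in HE samples, with 1 higher and 7 lower. The 8 neuron markers summed to 43.1 to 72.6 and 49.9 to 67.9 RPKM, with 3 higher and 5 lower. At an unadjusted p under 0.05 in limma, 0 progenitor markers were higher and 1 lower, and 2 neuron markers were higher and 0 lower. Of all tested genes 8.68% were higher and 11.8% lower at this p. The HE samples lay entirely below NC for 3 progenitor markers and entirely above for 3 neuron markers, against 17.9% and 14.8% of all tested genes. Of 7 endothelial markers 4 were tested, 3 of them higher, with sums of 2.79 to 3.80 RPKM in NC samples and 4.64 to 6.19 in HE samples. Of 6 mesenchymal markers 5 were tested, all higher, with sums of 21.7 to 71.1 RPKM in NC samples and 61.8 to 141 in HE samples.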

How the data were processed

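RNA-Seq of 3 HE and 3 NC samples of NSC/NPCs was analysed, with groups and replicate numbers taken from the sample titles. The authors discarded reads of poor quality or with adaptor sequence and aligned the others with TopHat2 to mm10, and the submitters' processing notes also list CASAVA 1.7. The counting tool, annotation and strand setting are not given in the sources used here. The deposited table gives raw read counts per gene and RPKM, the latter scaled by the authors to gene length and to all reads counted in a sample. The deposited RPKM differed from this formula by at most 4.99e-07. Other values in the deposited table, the gene lengths and the read counts, are written with commas between digits, which were removed on reading. The counts were recorded under the unit "other" and were used for voom and for median-of-ratios scaling. DESeq2, the study's tool, was not run.

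Symbols were matched for 21781 of 22048 identifiers. limma 3.58.1 (R 4.3.3) was run on log2(RPKM + 0.1) for 13952 genes, with group as the only term and a trend of variance on level. These genes reached, in at least 3 samples, the rate equal to 10 reads in a median-sized library, and 15 reads in total. The fit was also run on simulated data, and the outcome of that run is not reported here. Depth limits cover counting error only. All members were named, and from each further list of the pathway at most 3 genes, those with the smallest unadjusted p among genes whose groups did not overlap. Genes of these lists named beyond this rule are marked as named after their values were seen. The markers Gfap, S100b and C1qa were also named outside the plan, which held only summed levels for the marker lists. A gene counted in the list of sterol handling is not reported by name here. The members and lists were chosen with earlier results of these data known. Coordinates are those of RefSeq on GRCm38.p6, which is the mm10 build. Alternatives were a pseudocount of 1, median-of-ratios scaling, other filters, a replicate block, leaving out each sample, voom, sample weights and robust empirical Bayes.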

Additional observations from a re-analysis of the deposited data

How the results depend on the processing

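Under the alternatives, called genes numbered 0 except for 268 with sample weights (1 of them a member, Abca1) and for the fits that left out a sample, which gave 0 to 103, the latter without NC3. With sample weights, which gave HE3 a weight of 0.158, 20 members had an unadjusted p under 0.05, 15 higher and 5 lower (of all tested genes 13.5% and 16%), and the adjusted p was 0.0278 for Abca1 and 0.0402 for Stard4. Leaving out each sample gave 2 to 11 members at this p (9 with all samples), 9 to 20 members with groups apart (9 with all samples) and a median of -0.86 to -0.41 for the LXR genes. Directions turned for 7 members, all between -0.17 and 0.16 with all samples. With a sample left out, Acaca ran from -0.030 to 0.065, Insig1 from -0.068 to 0.25, Lss from -0.11 to 0.36, Msmo1 from -0.029 to 0.35, Scd1 from -0.36 to 0.029, Srebf2 from -0.17 to 0.038 and Tm7sf2 from -0.18 to 0.044. With sample weights Scd1 was at 0.051 and Tm7sf2 at 0.044. Of 476 values for single members under the alternatives, 464 kept their direction and their side of the threshold. Counts of members by direction were added after seeing the data.

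The replicate number pairs samples across groups in the titles alone. Deviations of same-numbered samples from their group means correlated over genes at 0.16, 0.087 and 0.060, and each sample correlated best with its own number, a hint from the data and not the design. With the replicate block 0 genes were called, and 8 members had an unadjusted p under 0.05, 5 higher and 3 lower.

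Nr1h3, Abcg1 and Fdps rest on 76 to 222 reads per sample, so counting error weighs most on their values. The fitted SE did not follow read depth alone, as it was 0.27 for Lss and 0.20 for Fdps.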

Other observations

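Ratios within a sample, chosen after the values had been seen and not tested, put the unlike directions side by side on the RPKM scale. Abca1 was 70.9, 129 and 67.0 times Abcg1 in NC1, NC2 and NC3, and 28.0, 23.9 and 15.9 times Abcg1 in HE1, HE2 and HE3. Every HE ratio was below every NC ratio. This had to follow, because both genes had groups apart in opposite directions, so the ratio adds no support. Fasn was 1.14, 1.15 and 0.968 times Acly in NC and 0.762, 0.807 and 0.702 times Acly in HE, again with no overlap. Fdft1 was 0.498, 0.469 and 0.392 times Hmgcs1 in NC and 0.355, 0.261 and 0.225 times in HE. The desaturases kept their proportion more closely, with Scd2 at 7.97, 10.3 and 8.59 times Scd1 in NC and 8.18, 7.86 and 8.11 times in HE. Srebf1 was 1.27, 1.98 and 1.39 times Srebf2 in NC and 1.17, 1.24 and 1.62 times in HE, and these ratios overlapped.

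The deposited values of Fdps were 1.32 to 2.18 RPKM in all 6 samples, the lowest of the 18 enzymes. They were far below those of Mvd, an earlier enzyme of the route, at 39.4 to 70.6 RPKM. How reads that match several places were counted is not given in the sources used here. Whether the low Fdps values reflect the transcript level was therefore not tested.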
